A study of Mus musculus with 2 samples.

Results

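The genes of 10 transcription factors were followed in dermal fibroblast-lineage cells of untreated and psoriasiform mouse skin. These were Irx1, Irx2, Irx3, Irx5, Tbx15, Twist1, Twist2, Prrx1, Tcf4 and Zeb2, which are 10 of the 31053 genes in the count tables, matched by symbol. These genes were selected on their UMIs, their shares of cells, their co-occurrence and their ratio between the same libraries, so the levels and ratios below are a description and carry no test. The cells came from the dermis of C57BL/6 mice aged 8 weeks with the genotype PdgfraDreER-tdTomato, in which tamoxifen lets a recombinase driven by Pdgfra turn on tdTomato for good, so the label marks a history of Pdgfra expression and not its present level. Both groups carried this allele pair and both were sorted as live CD45-tdTomato+ cells. The untreated group (UT) and the group given imiquimod (IMQ), a Toll-like receptor agonist applied as a cream, for 7 days were each 1 library from the Chromium 3′ kit. How many mice went into a library was not given in the sources used here. With 1 library per group no spread between mice could be estimated, no test was run, and the ranges in parentheses are exact 95% intervals that cover counting error only.

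The 10 genes fall into families that set position and cell state. Iroquois (Irx) proteins are homeodomain factors that pattern tissues, and in mammals their genes lie in paired clusters, with Irx1, Irx2 and Irx4 in one and Irx3, Irx5 and Irx6 in the other. Tbx15 is a T-box factor that marks dorsal and ventral identity in the dermis and coat. Twist1 and Twist2 are basic helix-loop-helix factors of the early dermal mesenchyme, and Tcf4 is an E protein, a class of partner with which Twist proteins can dimerise. Prrx1 is a paired-type homeodomain factor of limb, craniofacial and dermal mesenchyme, and Zeb2 is a zinc finger repressor that binds E-box sequences and is known for silencing the epithelial cadherin gene Cdh1.

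In the GENCODE M21 annotation of GRCm38, Irx1 (ENSMUSG00000060969, minus strand) spans bases 71957921 to 71963723 of chromosome 13 and Irx2 (ENSMUSG00000001504, plus strand) bases 72628820 to 72634198. They are 665.096 kb apart with no overlap with another annotated gene, and Irx4 follows Irx2 after 626.28 kb. Irx3 (ENSMUSG00000031734, minus strand, 91798525 to 91802067) and Irx5 (ENSMUSG00000031737, plus strand, 92357625 to 92376286) lie 555.557 kb apart on chromosome 8. Tbx15 is on the plus strand of chromosome 3 (99240381 to 99354259), Twist1 on the plus strand of chromosome 12 (33957671 to 33959829), Twist2 on the plus strand of chromosome 1 (91801461 to 91848028), Prrx1 on the minus strand of chromosome 1 (163245119 to 163313710) and Zeb2 on the minus strand of chromosome 2 (44983632 to 45117395). Antisense genes overlap exons of Irx3, Prrx1, Twist2 and Zeb2, and whether the counting used strand was not given in the sources used here. Few UMIs were counted for them, with 2 in UT and 0 in IMQ for Irx3os, 10 and 3 for Zeb2os, and 0 in both for Gm20471 at Prrx1 and Gm29100 at Twist2.

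Start-site windows are shown for an Iroquois pair, Irx2 and Irx3, whose ratios between the libraries stood apart, and for the Twist pair, whose ratios were close. Each runs from 250 bases before to 50 bases after the RefSeq start (GRCm38.p6), read 5′ to 3′ on the gene's strand. The windows are chr13:72628570-72628869 (plus) for Irx2, chr8:91801605-91801904 (minus) for Irx3, chr12:33957421-33957720 (plus) for Twist1 and chr1:91801211-91801510 (plus) for Twist2. Capitals mark every match, on either strand, to the GC box GGGCGG, to the CCAAT box, to the TATA box TATAAA or to the E-box CANNTG. The form CACCTG, which Zeb and E proteins bind, is contained in the E-box pattern and was also counted alone.
Irx2: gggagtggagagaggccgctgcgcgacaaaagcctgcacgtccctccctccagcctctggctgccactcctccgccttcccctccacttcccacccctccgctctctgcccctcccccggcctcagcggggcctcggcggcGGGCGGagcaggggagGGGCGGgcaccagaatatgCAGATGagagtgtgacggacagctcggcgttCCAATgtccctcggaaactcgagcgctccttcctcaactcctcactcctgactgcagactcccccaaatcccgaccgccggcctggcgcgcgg
Irx3: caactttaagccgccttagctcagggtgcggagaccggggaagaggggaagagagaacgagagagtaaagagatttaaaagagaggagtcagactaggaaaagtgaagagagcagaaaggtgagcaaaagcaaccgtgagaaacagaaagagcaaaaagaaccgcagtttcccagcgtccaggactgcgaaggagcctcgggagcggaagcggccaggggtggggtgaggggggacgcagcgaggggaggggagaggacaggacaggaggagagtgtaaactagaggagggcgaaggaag
Twist1: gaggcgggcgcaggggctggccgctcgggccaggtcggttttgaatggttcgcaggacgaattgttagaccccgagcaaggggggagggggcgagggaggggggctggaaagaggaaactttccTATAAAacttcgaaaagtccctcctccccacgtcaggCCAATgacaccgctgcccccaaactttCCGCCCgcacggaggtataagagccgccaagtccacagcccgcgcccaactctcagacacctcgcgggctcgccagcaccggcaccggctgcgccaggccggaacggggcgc
Twist2: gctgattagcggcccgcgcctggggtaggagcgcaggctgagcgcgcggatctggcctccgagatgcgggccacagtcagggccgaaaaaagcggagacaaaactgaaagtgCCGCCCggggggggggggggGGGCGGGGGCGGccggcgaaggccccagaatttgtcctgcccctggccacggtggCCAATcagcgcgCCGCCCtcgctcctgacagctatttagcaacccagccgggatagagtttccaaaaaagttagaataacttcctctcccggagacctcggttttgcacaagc

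The Irx2 window held 25 CpG dinucleotides, 2 GC boxes at -109 and -93 from the start, 1 CCAAT at -43 and 1 E-box, CAGATG, at -74. The Irx3 window held 14 CpG and no match to any of these motifs. It lies inside the GENCODE gene, which on the minus strand reaches base 91802067, beyond the window's end at 91801904. The windows of Irx2, Twist1 and Twist2 begin before their GENCODE starts, so the Irx3 motifs are not set against theirs. The Twist1 window held 27 CpG, a TATAAA at -126, a CCAAT at -89 and a GC box at -62, and the Twist2 window held 25 CpG, 4 GC boxes and a CCAAT at -63. Over 32851 such windows of RefSeq genes the median was 7 CpG, and 35.7% held a GC box, 37.4% a CCAAT box, 13.6% a TATA box, 72.3% an E-box and 20.2% its form CACCTG. A match to these letters is no evidence of binding, and windows were matched for 6 of the 10 genes.

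Levels were summed over barcodes with 200 to 5000 detected genes and at most 5% of UMIs from mt- (mitochondrial) genes, which kept 1045 UT barcodes with 1104798 UMIs and 571 IMQ barcodes with 460947 UMIs. The median barcode held 741 UMIs in UT and 659 in IMQ. The libraries shared 1 barcode sequence over all deposited barcodes and 0 in this set. All 8 fibroblast markers were seen, and at least 1 of them had a UMI in 97.7% of UT and 99.8% of IMQ barcodes. They summed to 81880 UMIs per 1e6 UMIs in UT and 122652 in IMQ, and to 14623 in a class II cluster described below. That share therefore does not tell what a single barcode is. Markers of other cells differed between the libraries, with a summed 1340 UMIs per 1e6 UMIs (CPM) for 7 keratinocyte markers in UT against 15.2 in IMQ, where Krt5, Krt1, Cdh1 and Krt15 were at 0, and 1344 CPM for 8 myeloid or class II markers in UT against 190.9 in IMQ. Endothelial, pericyte, T cell, Schwann and melanocyte lists summed to at most 143.0 CPM in either library. The transcript Gm42418, which overlaps ribosomal RNA, took 1.38% of UMIs in UT and 14.6% in IMQ, and the median gene of the 8129 with at least 10 UMIs over both libraries stood at a log2 ratio of IMQ over UT of -0.61. For the members summed over a set of barcodes the ratio is therefore also given as its distance from the median gene, while ratios within single clusters are in CPM. In summed libraries, fewer cells with a transcript and less transcript per cell cannot be told apart.

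Irx1 and Irx2, the neighbours on chromosome 13, were the members that stood higher in IMQ. The UT library held 68 UMIs of Irx1 and the IMQ library 74, equal to 61.5 CPM (47.8 to 78.0) against 160.5 CPM (126.1 to 201.5). For Irx2 there were 24 UMIs against 76, equal to 21.7 CPM (13.9 to 32.3) in UT against 164.9 CPM (129.9 to 206.4) in IMQ. For both genes the counting intervals of the libraries did not overlap. As a log2 ratio, IMQ over UT, Irx1 stood at 1.38 (0.89 to 1.88), a 2.61-fold difference, and Irx2 at 2.92 (2.25 to 3.65), a 7.59-fold difference. Relative to the median gene these were 1.997 and 3.54, and Irx2 ranked 29th and Irx1 183rd from the top among the 8129 genes. In UT 1 barcode held 11 of the 68 Irx1 UMIs, and no IMQ barcode held more than 4 UMIs of either gene. Within UT, 26.1% (17.5 to 36.3) of the UMIs of this pair were Irx2, and within IMQ 50.7% (42.4 to 58.9). This share compares the pair inside each library, so no scaling enters it, and its intervals did not overlap.

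The chromosome 8 members had few UMIs. Irx3, with 16 UMIs in UT against 7 in IMQ, stood at 14.5 CPM (8.28 to 23.5) against 15.2 CPM (6.11 to 31.3). Irx5, with 24 against 13 UMIs, stood at 21.7 CPM (13.9 to 32.3) in UT against 28.2 CPM (15.02 to 48.2) in IMQ. The intervals of the libraries overlapped for both genes, and their log2 ratios, 0.07 (-1.45 to 1.43) and 0.38 (-0.72 to 1.41), had intervals that included 0, and they stood 0.68 and 0.99 above the median gene. With up to 10% mt- UMIs the direction in CPM had turned for Irx3, at -0.45 (-1.87 to 0.84), and not for Irx5, at 0.19 (-0.67 to 1.03). Over all deposited barcodes both were below 0, at -0.85 (-1.85 to 0.13) for Irx3 and -0.81 (-1.48 to -0.14) for Irx5. There both stayed above the median gene, by 0.19 and 0.24. Of the 43 UT UMIs of Irx5 in that set, 13 came from 2 barcodes with over 5000 genes. The other Iroquois genes were close to absent, with 0 UMIs in UT and 1 in IMQ for Irx4 and 6 and 0 for Irx6. Irx1 and Irx2 supplied 69.7% (61.1 to 77.4) of the UMIs of the 4 Irx members in UT and 88.2% (82.4 to 92.7) in IMQ.

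Tbx15 had overlapping levels. Its 50 UMIs in UT gave 45.3 CPM (33.6 to 59.7) and its 17 in IMQ 36.9 CPM (21.5 to 59.0). The log2 ratio, -0.30 (-1.18 to 0.52), was below 0 in CPM and 0.32 above the median gene. The related Tbx18, Tbx2 and Tbx3 had 2, 0 and 1 UMIs in UT and 1 each in IMQ, so no ratio is given for them.

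The Twist genes were lower in IMQ in CPM and near the median gene once centred. Twist1 gave 343 UMIs in UT against 103 in IMQ, hence 310.5 CPM (278.5 to 345.1) against 223.5 CPM (182.4 to 271.0). On the log2 scale IMQ over UT stood at -0.47 (-0.81 to -0.15) in CPM, 0.01 after TMM scaling (trimmed mean of M values) and 0.14 above the median gene, so its direction depended on the scaling. Twist2 gave 90 against 29 UMIs, hence 81.5 CPM (65.5 to 100.1) in UT against 62.9 CPM (42.1 to 90.4) in IMQ, and a log2 ratio of -0.37 (-1.03 to 0.25). It stood 0.24 above the median gene, again with the opposite sign. Twist2 gave 20.8% (17.1 to 24.9) of Twist UMIs in UT and 22.0% (15.2 to 30) in IMQ, with overlapping intervals.

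Prrx1, Tcf4 and Zeb2 were lower in IMQ both in CPM and relative to the median gene. Of Prrx1, 432 UMIs were counted in UT against 87 in IMQ, which is 391.0 CPM (355.0 to 429.7) against 188.7 CPM (151.2 to 232.8), a log2 ratio of -1.05 (-1.40 to -0.72). Of Tcf4 there were 319 against 53 UMIs, which is 288.7 CPM (257.9 to 322.2) in UT against 115.0 CPM (86.1 to 150.4), a log2 ratio of -1.33 (-1.78 to -0.91). Of Zeb2 there were 238 against 47 UMIs, which is 215.4 CPM (188.9 to 244.6) in UT against 102.0 CPM (74.9 to 135.6), a log2 ratio of -1.08 (-1.56 to -0.62). For all 3 genes the intervals of the libraries lay apart. The distance from the median gene was smaller and left each of them within 2-fold of it. It was -0.44 (-0.79 to -0.10) for Prrx1, -0.72 (-1.16 to -0.29) for Tcf4 and -0.47 (-0.95 to -0.009) for Zeb2. For Zeb2 the interval included the median gene with up to 10% mt- UMIs, at -0.29 (-0.65 to 0.06), and over all deposited barcodes, at -0.09 (-0.36 to 0.18). With TMM scaling the log2 ratios were smaller, at -0.57, -0.85 and -0.60. Over the 303 UT and 37 IMQ barcodes with at least 500 genes they were -0.41 (-1.02 to 0.16), -0.33 (-1.03 to 0.31) and -0.34 (-1.21 to 0.43), each with an interval that included 0.

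**Figure D1:**
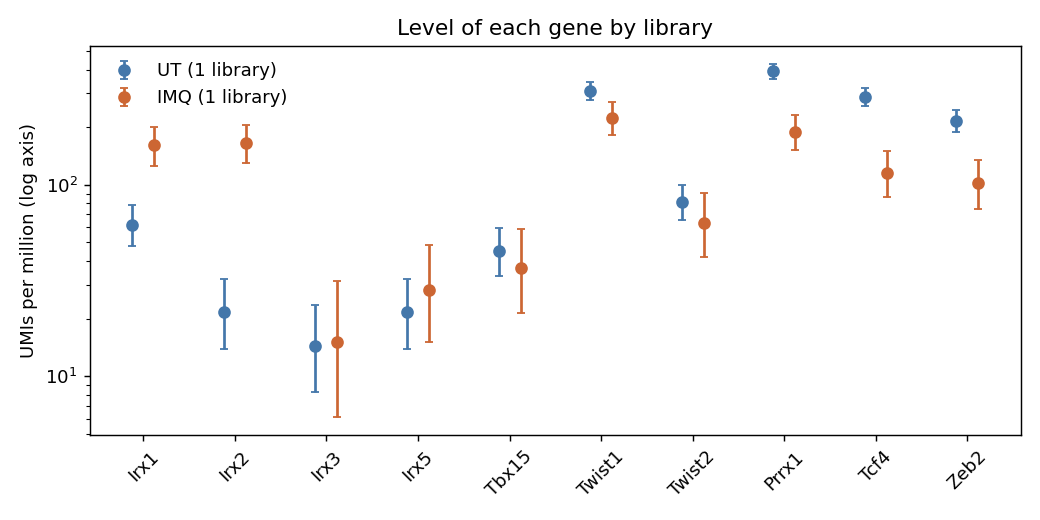
UMIs per 1e6 UMIs (log axis) of each gene in the UT library (blue) and the IMQ library (orange), over barcodes with at most 5% mt- UMIs, with exact Poisson 95% intervals. Irx1 and Irx2 sit higher in IMQ, at 160.5 and 164.9 against 61.5 and 21.7, while Prrx1, Tcf4 and Zeb2 sit lower. The lower Twist1 and Twist2 levels in IMQ turn to above the median gene once centred.

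Counted at 2-fold, 2 of the 10 genes, Irx1 and Irx2, were above the median gene and 0 were below. All 10 had at least 10 UMIs over both libraries. Of all measured genes 12.7% were at least 2-fold above and 14.9% at least 2-fold below, and since these ratios chose the genes, nothing is read from the counts. On the log2 scale the limit is 1, the nearest gene inside it was Irx1 at 1.997 and the nearest outside was Irx5 at 0.99. Without centring, in CPM, 2 of the 10 were at least 2-fold higher, against 4.03% of all genes, and 3, Prrx1, Tcf4 and Zeb2, at least 2-fold lower, against 32.1%. The median log2 ratio of the 10 genes was -0.33, which is 0.28 above the median gene.

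Irx1 and Irx2 stayed above the median gene when the limits on barcodes were loosened. With up to 10% mt- UMIs, which kept 1301 UT and 1043 IMQ barcodes, Irx1 stood 2.08 and Irx2 3.31 above the median gene, and 2 genes were at least 2-fold above (12.1% of all genes) and 0 at least 2-fold below (14.0%). Over all 1415 UT and 5047 IMQ barcodes deposited these distances were 2.08 and 3.17, with again 2 genes above (11.9% of all genes) and 0 below (13.0%). That set held 76 UMIs of Irx1 in UT against 241 in IMQ, and 35 against 237 of Irx2. Prrx1 stood 0.65 below the median gene with the looser limit and 0.58 below over all barcodes. Twist1 lay between -0.04 and 0.14 from it in the 3 sets, and Twist2 moved from 0.24 above to 0.39 below over all barcodes. Zeb2 came closest to the median gene over all barcodes, at -0.09.

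**Figure D2:**
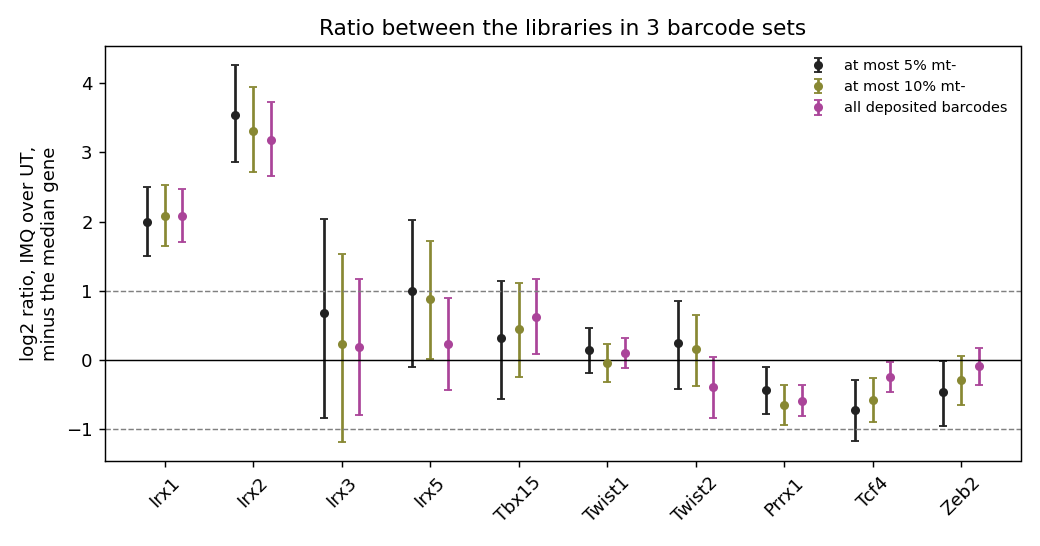
Log2 ratio of IMQ over UT minus the ratio of the median gene (vertical axis) for each gene in 3 sets of barcodes, with exact conditional binomial 95% intervals. The dashed lines mark 2-fold, and Irx1 and Irx2 lie above the upper line in every set, with Irx2 between 3.17 and 3.54.

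Most deposited IMQ barcodes were shallow, and the members were seen there too. In the 3621 IMQ barcodes with under 200 genes, whose median depth was 287 UMIs, Irx1 had 78.8 CPM (63.4 to 96.7) and Irx2 74.4 CPM (59.5 to 91.9). Across IMQ barcodes of 200 to 5000 genes, Irx1 went from 160.5 CPM at up to 5% mt- UMIs to 124.2 CPM (91.6 to 164.7) between 5% and 10%, and to 88.1 CPM (58.0 to 128.1) over 10%. Irx2 went from 164.9 to 100.9 CPM (71.8 to 138.0) and 97.9 CPM (66.0 to 139.7), and Prrx1 from 188.7 to 103.5 CPM (74.0 to 141.0) and 68.5 CPM (42.4 to 104.7). Tbx15, Twist2 and Irx5 also fell at each step. Tcf4 did not follow this order, with 115.0, 137.2 and 146.8 CPM. Neither did Twist1, with 223.5, 137.2 and 169.6 CPM, nor Zeb2, with 102.0, 108.7 and 91.3 CPM. Irx3, with 7, 1 and 3 UMIs, did not follow it either. Between 5% and 10% mt- UMIs, where UT had 256 barcodes with 4 UMIs of Irx1 and 5 of Irx2, the log2 ratios were 2.72 (1.27 to 4.65) and 2.10 (0.75 to 3.798). The UT strata beyond those limits held 48 and 64 barcodes and 0 or 1 UMI of either gene, so no ratio was read there. In IMQ, barcodes with Irx1 or Irx2 had a median of 1.28% mt- UMIs against 2.69% in those without, and similar Gm42418 shares of 14.7% and 14.8%. The part of these differences in the ratios was not tested.

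Among barcodes with at most 5% mt- UMIs, the shares followed the levels. A UMI of Irx1 was found in 45 of 1045 UT barcodes, 4.31% (3.16 to 5.72), and in 60 of 571 IMQ barcodes, 10.5% (8.11 to 13.3). For Irx2 the shares were 2.11% (1.32 to 3.17) and 11.4% (8.90 to 14.3). Twist1 was found in 20.4% (18.0 to 23.0) and 13.7% (10.9 to 16.8), Prrx1 in 24.8% (22.2 to 27.5) and 11.6% (9.05 to 14.5), Tcf4 in 18.5% (16.2 to 21.0) and 5.60% (3.86 to 7.82), and Zeb2 in 14.7% (12.6 to 17.0) and 6.48% (4.60 to 8.82). Irx3, Irx5, Tbx15 and Twist2 had overlapping intervals, with shares from 1.15% to 6.99% in UT and from 1.23% to 4.73% in IMQ. Most detections rested on a lone UMI, which was all there was in 77.8% of UT and 81.7% of IMQ barcodes with Irx1. Over all deposited barcodes the median depth was 694 UMIs in UT and 355 in IMQ. There the Irx1 shares overlapped, at 3.60% (2.70 to 4.71) in UT and 4.14% (3.61 to 4.73) in IMQ. For Irx2 they were 1.98% (1.32 to 2.85) and 4.02% (3.50 to 4.60).

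Because depth differed, each barcode was also thinned at random to 400 UMIs, which left out 73 shallower UT and 33 shallower IMQ barcodes. Irx1 was then found in 1.75% (1.02 to 2.79) of UT and 6.69% (4.73 to 9.14) of IMQ barcodes, and Irx2 in 0.926% (0.424 to 1.75) and 7.06% (5.05 to 9.57). Prrx1 had 13.5% (11.4 to 15.8) and 5.76% (3.95 to 8.08), and Tcf4 9.98% (8.17 to 12.04) and 2.79% (1.57 to 4.56). These 4 genes kept intervals that did not overlap. Zeb2 had 6.89% (5.38 to 8.67) and 3.72% (2.29 to 5.68) and Twist1 9.77% (7.98 to 11.8) and 6.69% (4.73 to 9.14), both with overlapping intervals. A UMI of at least 1 of the 4 Irx members was in 3.81% (2.69 to 5.21) of thinned UT barcodes and 14.7% (11.8 to 18.0) of thinned IMQ barcodes, and a UMI of Twist1, Twist2, Prrx1, Tcf4 or Zeb2 in 35.0% (32.0 to 38.1) and 19.1% (15.9 to 22.7). For background, a small cluster led by Cd74 and class II genes was looked at. Its 24 UT barcodes held 0 UMIs of any member, at a median of 414.5 UMIs, and a floor of 3 counts there is 12.5% of barcodes. In IMQ that cluster had 9 barcodes at a median of 470 UMIs, 0 with a UMI of an Irx member, Tbx15 or Twist2. Twist1, Prrx1, Tcf4 and Zeb2 were each in 1 of them, and background and RNA of these cells cannot be told apart. The floor in IMQ is 33.3%. Both floors lie above the share of each Irx member, so background could not be bounded below them.

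**Figure D3:**
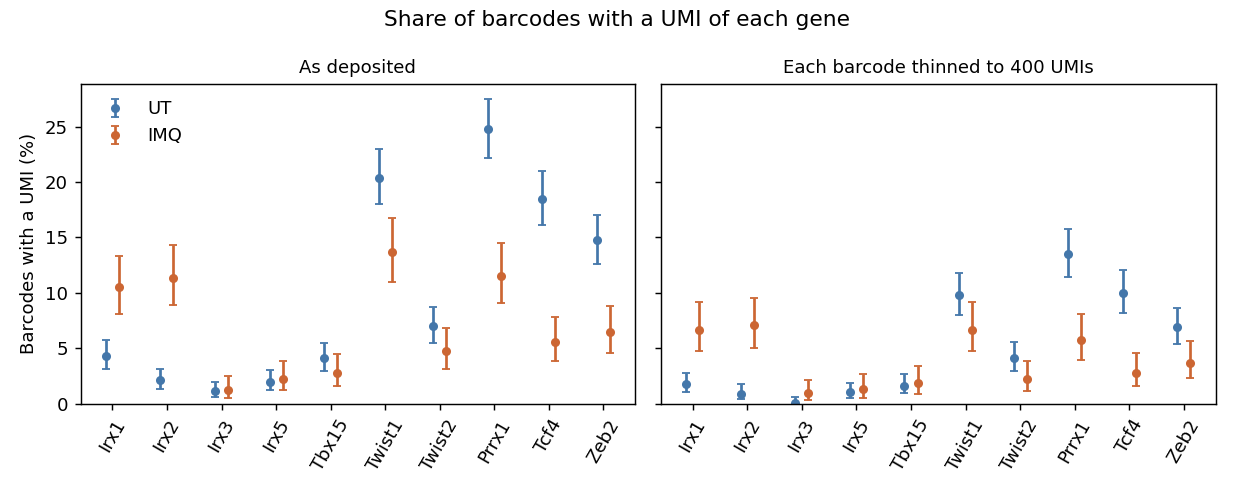
Percent of barcodes with at least 1 UMI of each gene in UT (blue) and IMQ (orange), as deposited (left) and after thinning each barcode to 400 UMIs (right), with exact Clopper-Pearson 95% intervals. Irx2 stands at 2.11% and 11.4% on the left and at 0.926% and 7.06% on the right, and Prrx1 and Tcf4 run the other way.

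The libraries were clustered together after the members and the listed transcription factors had been removed from the features used, which gave 5 clusters. Clusters 1 (led by Pi16, Lbp and Cilp), 2 (Coch, Fmod and Igfbp4) and 3 (Gal, Tmem150c and Cpz) had 6 of 8 fibroblast markers in at least 20% of cells and were called fibroblast-like. They held 427, 336 and 225 UT barcodes and 257, 123 and 174 IMQ barcodes. Cluster 4, led by Malat1 and keratin genes with 3733 UMIs in the median barcode, and the class II cluster 5 stayed unnamed. At its greater depth cluster 4 had all 8 fibroblast markers in at least 20% of cells, beside 3 enriched keratinocyte markers.

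Irx2 was higher in IMQ in each fibroblast-like cluster. Its level was 26.1 CPM (14.2 to 43.7) in UT and 229.6 CPM (169.8 to 303.5) in IMQ in cluster 1, and 13.0 CPM (1.57 to 46.8) and 128.6 CPM (72.0 to 212.1) in cluster 3. In cluster 2 there were only 2 UMIs in UT against 5 in IMQ, with a log2 ratio of 2.70 (0.09 to 6.09). Irx1 had 61.4 CPM (42.3 to 86.3) and 206.1 CPM (149.8 to 276.7) in cluster 1 and 25.9 CPM (7.06 to 66.4) and 180.1 CPM (111.5 to 275.2) in cluster 3. In cluster 2 its 7 UMIs in UT and 4 in IMQ gave overlapping levels, 32.2 CPM (13.0 to 66.4) and 47.8 CPM (13.0 to 122.4). Among IMQ cells both genes were thus lower in the Coch and Fmod cluster than in the Pi16 cluster, with intervals that did not overlap.

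The unnamed cluster 4 held part of the level of several members, Irx1 among them. It had 24 of the 68 UT UMIs and 5 of the 74 IMQ UMIs of Irx1, at 134.1 CPM (85.9 to 199.5) and 124.6 CPM (40.5 to 290.9). Other members were there too, such as 7 of 16 UT UMIs of Irx3, 100 of 343 of Twist1 and 71 of 238 of Zeb2. For Tcf4 they were 72 of 319 and for Prrx1 76 of 432. UT barcodes with Irx1 or Irx2 held 700 of the 1480 keratinocyte marker UMIs of the library. In IMQ such barcodes held 4 of 7. The part of keratinocyte RNA in the UT level of Irx1 was not tested. Over the fibroblast-like clusters alone Irx1 had 48.4 CPM in UT and 166.8 CPM in IMQ, a log2 ratio of 1.78 (1.22 to 2.36), and Irx2 had 19.8 and 166.8 CPM, a log2 ratio of 3.07 (2.31 to 3.91). All 4 Irx members were then at least 2-fold above the median gene (13.8% of genes were), with Irx3 at 1.40 from 9 UT and 7 IMQ UMIs and Irx5 at 1.14. The log2 ratios of Irx3, 0.77 (-0.89 to 2.37), and Irx5, 0.51 (-0.62 to 1.59), had intervals that included 0, and all 13 IMQ UMIs of Irx5 lay in cluster 1. Tcf4 became the 1 member at least 2-fold below (14.0% of genes), at -1.19.

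Prrx1, Tcf4 and Zeb2, and also Twist1, had lower CPM in IMQ in each of the 3 fibroblast-like clusters. Over these clusters together the median gene stood at -0.63. Relative to it Prrx1 was at -0.67 (-1.07 to -0.29) and Tcf4 at -1.19 (-1.77 to -0.65). Zeb2, at -0.41 (-0.97 to 0.11), had an interval that included the median gene, and Twist1 stood 0.23 above it. Prrx1 had 478.4 CPM (421.7 to 540.6) in UT and 220.2 CPM (161.8 to 292.8) in IMQ in cluster 1, and 285.1 CPM (207.2 to 382.8) and 102.9 CPM (53.2 to 179.7) in cluster 3. Tcf4 had 314.6 CPM (269.0 to 365.8) and 93.7 CPM (57.2 to 144.7) in cluster 1, and 262.3 CPM (198.7 to 339.9) and 71.7 CPM (26.3 to 156.1) in cluster 2. Zeb2 had 165.7 CPM (133.1 to 203.9) and 70.3 CPM (39.3 to 115.9) in cluster 1, while in cluster 2 its intervals overlapped, at 230.1 and 155.4 CPM. They overlapped in cluster 3 as well, at 181.4 CPM (120.6 to 262.2) and 77.2 CPM (35.3 to 146.5). So did those of Tcf4 in cluster 3, at 136.1 CPM (84.2 to 208.0) and 51.4 CPM (18.9 to 112.0). Twist1 was close in cluster 1, at 320.2 CPM (274.1 to 371.8) and 299.8 CPM (230.9 to 382.9), and further apart in cluster 2, at 184.1 CPM (131.5 to 250.7) and 59.8 CPM (19.4 to 139.4), a log2 ratio of -1.62 (-3.32 to -0.28). In cluster 4, at 402.2 and 473.6 CPM for Tcf4 and 424.5 and 498.5 CPM for Prrx1, neither was lower in IMQ, from 33 UT and 8 IMQ barcodes.

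**Figure D4:**
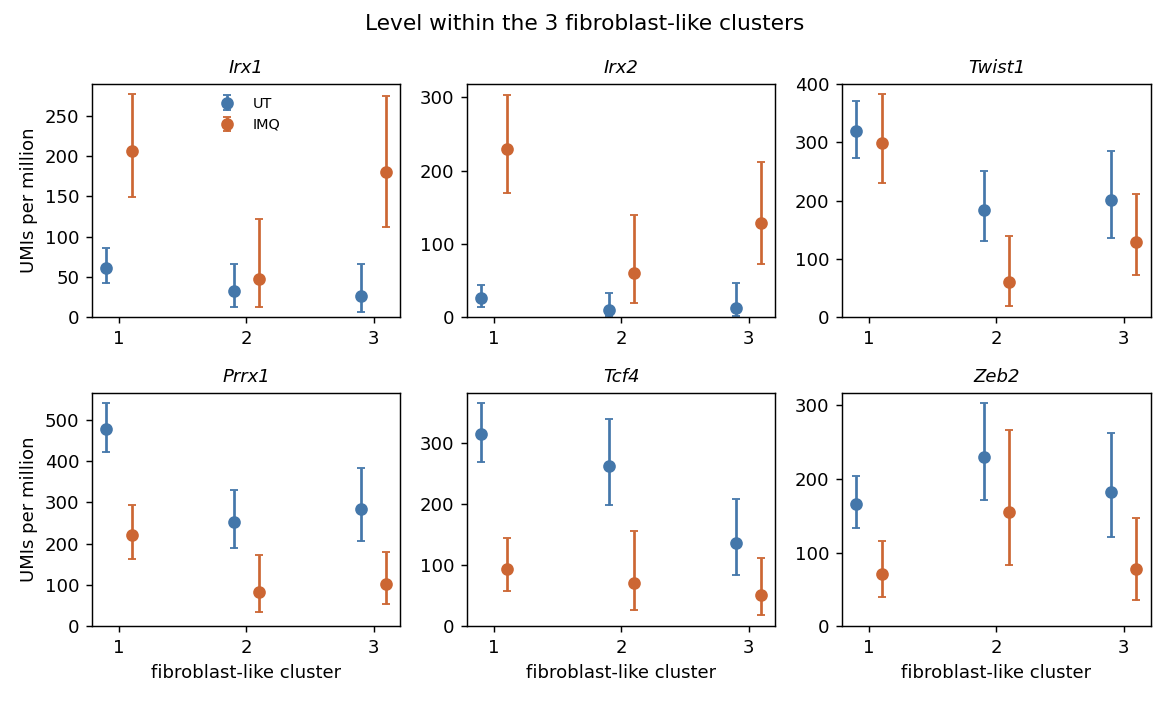
UMIs per 1e6 UMIs of 6 genes in fibroblast-like clusters 1, 2 and 3 (horizontal axis) in UT (blue) and IMQ (orange), with exact Poisson 95% intervals and a vertical axis that starts at 0 in each panel. Irx1 and Irx2 are highest in IMQ clusters 1 and 3. Twist1, Prrx1, Tcf4 and Zeb2 have lower CPM in IMQ in each cluster, some with overlapping intervals.

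Few cells held UMIs of several members. In UT 454 of 1045 barcodes held none of the 10 genes, 319 held 1 and 170 held 2, and in IMQ 311 of 571 held none, 168 held 1 and 62 held 2. Irx1 and Irx2 met in 2 UT barcodes, out of 45 with Irx1 and 22 with Irx2, and in 12 IMQ barcodes, out of 60 and 65. Irx2 was thus in 20% (10.8 to 32.3) of IMQ barcodes with Irx1, beside 11.4% of all IMQ barcodes, with median depths of 745.5 and 659 UMIs. After thinning the count was 0 in UT and 6 in IMQ, or 16.7% of the 36 barcodes with Irx1 against 7.06% of all. Over all deposited barcodes the pair met in 4 UT and 27 IMQ barcodes.

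Irx2 also met Twist1 in IMQ. Of 65 IMQ barcodes with Irx2, 21 held Twist1, 32.3% (21.2 to 45.1), beside 13.7% of all IMQ barcodes, and after thinning 7 of 38 did, 18.4% beside 6.69%. For Irx1 the count with Twist1 was 11 of 60, 18.3% (9.52 to 30.4). Twist1 stood at 343.9 CPM (247.9 to 464.9) in IMQ barcodes with Irx1 or Irx2 and at 180.0 CPM (137.7 to 231.3) in those without, and in UT at 513.9 CPM (410.5 to 635.5) and 274.6 CPM (242.1 to 310.3). Prrx1 in IMQ was at 270.2 CPM (186.0 to 379.5) and 159.4 CPM (119.7 to 207.9), with overlapping intervals. In UT the 65 barcodes with Irx1 or Irx2 had a median of 1358 UMIs against 713 in those without. In IMQ the 113 had 748 against 652, so depth moved with these values. Levels also differed by cluster. In IMQ clusters 1, 2 and 3, Twist1 stood at 299.8, 59.8 and 128.6 CPM and Irx2 at 229.6, 59.8 and 128.6 CPM. In UT, cluster 4 had Twist1 at 558.6 CPM (454.5 to 679.4) and held 24 of the 68 UMIs of Irx1. The part of depth and of cluster in these values was not tested.

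Among the other pairs, Twist1 and Prrx1 met most often in UT, in 84 barcodes. That was 39.4% (32.8 to 46.3) of barcodes with Twist1, beside 24.8% of all, and 20% beside 13.5% after thinning. Twist1 and its possible partner Tcf4 met in 60 UT barcodes, 28.2% (22.2 to 34.7) of those with Twist1 beside 18.5% of all, and in 14 of 95 after thinning, 14.7% beside 9.98%. In IMQ they met in 8 of 78, 10.3% (4.53 to 19.2), beside 5.60% of all. Tcf4 and Zeb2 met in 53 UT and 10 IMQ barcodes, 27.5% (21.3 to 34.3) and 31.3% (16.1 to 50) of those with Tcf4. Barcodes with both genes of these UT pairs had median depths from 1818 to 1920.5 UMIs, above the 741 of all UT barcodes.

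Other transcription factors were summed in the same way, from lists of homeobox, T-box, helix-loop-helix and mesenchymal factors. Of 58 with at least 10 UMIs, 13 were at least 2-fold above the median gene, 9 at least 2-fold below and 36 between, with a median of -0.10 relative to it, beside 12.7% above and 14.9% below among all genes. The log2 ratio of Irx1 was exceeded by 8 of the 58. Relative to the median gene, the Hox cluster list had 3 above, 4 below and a median of -0.83 over 11 measured genes, the other homeobox list 2 above, 1 below and a median of -0.20 over 14, the helix-loop-helix and Id list 4 above, 0 below and a median of 0.75 over 10, and the other mesenchymal list 4 above, 4 below and a median of -0.20 over 23. The Hox median depended on the barcodes, at 0.10 with up to 10% mt- UMIs and -0.07 over all deposited barcodes. No T-box gene beside Tbx15 reached 10 UMIs.

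Among Hox genes, which record position along the body axis, Hoxc8 had 140 UMIs in UT against 12 in IMQ, a log2 ratio of -2.28 (-3.27 to -1.43), while Hoxc9 had 52 and 19 with a ratio of -0.19 (-1.03 to 0.59). Of the homeobox relatives of Prrx1, its paralogue Prrx2 had 168 and 27 UMIs and a log2 ratio of -1.38 (-2.02 to -0.78), Shox2 had 87 and 19 (-0.93, -1.73 to -0.21) and the dorsal dermis marker En1 had 49 and 19 (-0.11, -0.95 to 0.68). The Zeb2 paralogue Zeb1 had 55 and 14 UMIs and a log2 ratio of -0.71 (-1.67 to 0.15).

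Inhibitors and partners of helix-loop-helix factors differed among themselves. Id3, an Id protein that binds E proteins and keeps them off DNA, had 142 UMIs in UT against 183 in IMQ, 128.5 and 397.0 CPM, with a log2 ratio of 1.63 (1.30 to 1.95). Bhlhe40, a repressor that follows clock and stress signals, had 24 and 41 UMIs and a ratio of 2.03 (1.27 to 2.82). Id2 had 64 and 22 UMIs (-0.28, -1.05 to 0.44), the Notch target Hes1 57 and 30 (0.34, -0.35 to 1.00) and the E protein Tcf12 52 and 19 (-0.19, -1.03 to 0.59). Ebf1, an early B cell factor also found in stroma, had 222 and 57 UMIs and a ratio of -0.70 (-1.15 to -0.27). The ratio of Tcf4, at -1.33, and that of its relative Tcf12 had overlapping intervals.

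In the mesenchymal list the nuclear factor I genes shared a direction. The log2 ratio was -1.51 (-1.90 to -1.13) for Nfia, -1.75 (-2.67 to -0.95) for Nfib, -1.74 (-2.31 to -1.22) for Nfic and -1.50 (-1.83 to -1.19) for Nfix, each also below the median gene, by 0.89 to 1.14. Sox4 had -1.77 (-2.89 to -0.82). Osr2, an odd-skipped factor of mesenchyme, was higher in IMQ, with 106 and 88 UMIs and a log2 ratio of 0.99 (0.57 to 1.41). Creb3l1, which promotes collagen secretion, had -0.24 (-0.57 to 0.09), Trps1 -0.82 (-1.65 to -0.06), Wwtr1 -0.81 (-1.35 to -0.30) and Yap1 -0.65 (-1.66 to 0.25). The ratios of the listed factors are in CPM, and relative to the median gene, at -0.61, the direction turned for Hoxc9, En1, Tcf12, Id2 and Creb3l1, which stood 0.33 to 0.51 above it. Other factors with a lower CPM in IMQ lay near the median gene. Their distances were -0.09 for Ebf1, -0.10 for Zeb1, -0.20 for Trps1, -0.20 for Wwtr1, -0.04 for Yap1 and -0.32 for Shox2.

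**Figure D5:**
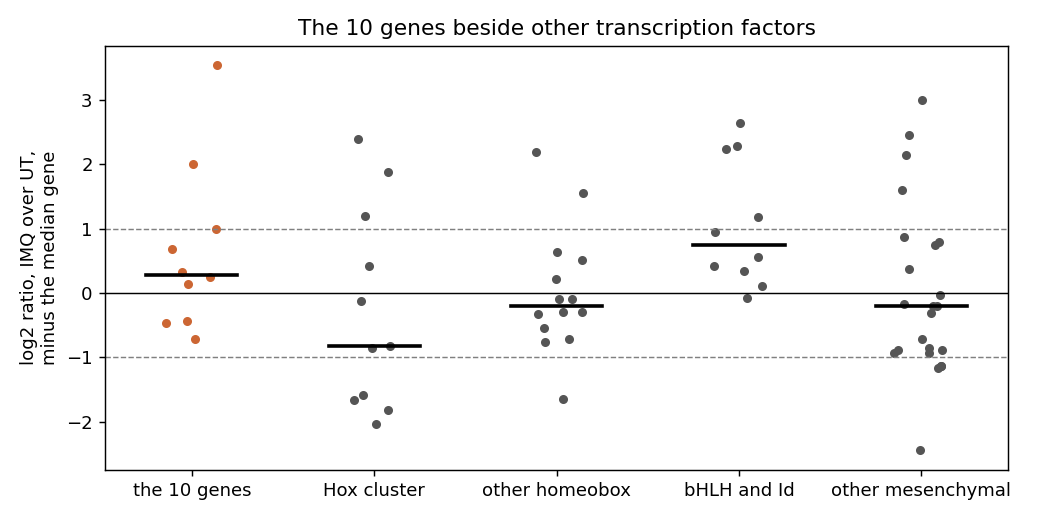
Log2 ratio of IMQ over UT minus the ratio of the median gene for the 10 genes (orange) and for other transcription factors with at least 10 UMIs by list (grey), 1 point per gene, with a bar at each median and dashed lines at 2-fold. The Hox cluster median lies at -0.83, which depends on the barcode set, and the bHLH and Id median at 0.75.

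Genes described as targets of Twist, Zeb or Prrx1 proteins were summed as well. Vim, an intermediate filament of mesenchymal cells, had 3071 UMIs in UT against 1769 in IMQ and a log2 ratio of 0.47 (0.38 to 0.55), and Fn1, which encodes fibronectin, had 119 and 84 UMIs and a ratio of 0.76 (0.34 to 1.17). Of the 6 with at least 10 UMIs, 3 were at least 2-fold above the median gene and 2 at least 2-fold below, beside 12.7% and 14.9% of all genes, and 1 of the 2, Cdh1, rests on a bound from a floor of 3 counts. The epithelial gene Cdh1 had 22 UMIs in UT and 0 in IMQ, and in UT the keratinocyte markers were higher as well, as given above.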

How the data were processed

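Dermal CD45-tdTomato+ cells of PdgfraDreER-tdTomato mice, UT and IMQ, were measured as 1 library each. The authors deposited UMI counts per gene and barcode, not normalised, written by Cell Ranger 3.0.0 (UT) and 3.1.0 (IMQ) per the file headers, with mm10 named in the submitters' processing notes. Fewer IMQ barcodes were in its matrix than the study kept after filtering, so whether it is the matrix analysed there is not known. Strand use in counting was not given in the sources used here. Coordinates are from GENCODE M21 and windows from RefSeq, both GRCm38.

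The members and lists were chosen with earlier results of these data known. All 10 genes are named, and of the list genes the 25 with most UMIs among those with at least 20, of which 1 is not reported here (Irx4, Irx6, Tbx2, Tbx3, Tbx18 and Cdh1 were named after their values were seen). Counts were summed per library and divided by its total (CPM). Intervals are exact Poisson, Clopper-Pearson and conditional binomial at 95% (scipy 1.17.1). A library at 0 counts was set to 3 counts where a ratio was formed, and none was formed where both had at most 3. The ratio code was tested on simulated data. No test was run. Clusters came from Seurat 5.3.0 (R 4.3.3) with 2000 variable genes, 30 anchor dimensions, 20 components and resolution 0.5. A cluster with at least 3 fibroblast markers in 20% of cells, under 3 enriched markers of another type and not more markers of other types than of fibroblasts among its 10 leading genes was called fibroblast-like. No doublets were removed in the main set; as an alternative Scrublet scores (scanpy 1.11.5) removed 9 UT and 3 IMQ barcodes. TMM factors came from edgeR 4.0.16.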

Additional observations from a re-analysis of the deposited data

How the results depend on the processing

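No paired analysis was possible because each group had 1 library, and none could be left out for the same reason. The 2 members at least 2-fold above the median gene became 4 in fibroblast-like clusters alone. They became 3, with Irx5 added, both with at least 500 detected genes and without the top barcode of each member. The 0 members below became 1 with at least 500 detected genes (Irx3, from 303 UT and 37 IMQ barcodes) and 1 in fibroblast-like clusters (Tcf4). Some alternatives put the 2-fold limit on the ratio itself and not on its distance from the median gene. These were TMM, median-of-ratios, CPM without mitochondrial and ribosomal protein genes, Gm42418 and AY036118, and CPM without centring. On that limit 1 member was lower after leaving out those genes (Tcf4) and 3 in CPM without centring, the last chosen after seeing the data. Irx1 and Irx2 were among the members above in each of the 11 alternatives for this count. TMM and median-of-ratios scaling, which moved the median gene by 0.48 each, turned the log2 ratio of Twist1 from -0.47 to 0.00863 and 0.0014, and the median over the 10 genes from -0.33 to 0.15 and 0.14. That median was -0.92 over all deposited barcodes without those over 5000 genes, an alternative added after seeing the data. The share of barcodes with a UMI of at least 1 member, 56.6% in UT and 45.5% in IMQ, was 53.1% and 21.1% over all deposited barcodes, 83.8% and 81.1% with at least 500 genes, and 38.6% and 31.4% after thinning. Of 100 alternative values of single-gene log2 ratios, 76 stayed within the counting interval and 22 moved outside it. The other 2 were the values of Twist1 above, counted as reversed. Among the 22, Irx5 over all deposited barcodes and Twist2 with at least 500 genes changed sign. Some of the 76 changed sign too, such as Irx3 with at least 500 genes, at -1.01, and Tbx15 with TMM scaling, at 0.19. Of 140 shares 92 stayed within the interval. At resolution 0.8, with 5 fibroblast-like clusters, Prrx1, Tcf4 and Zeb2 had lower CPM in IMQ in each, with intervals that included 0 in 1, 1 and 4 of them. Irx1 had higher CPM in each, with intervals that included 0 in 2, and Irx2 in the 3 clusters where a ratio could be formed. Twist1 was not lower in all 5. Depth limits Irx3, Irx5 and Tbx15 most, at 7 to 17 UMIs in IMQ.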
